A study of Mus musculus with 26 samples.

Results

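The 8 genes described here encode transcriptional regulators used in the diversification of retinal neurons: the BarH homeodomain factor Barhl2, the LIM-homeodomain factors Lhx1, Lhx2, Lhx9 and Isl1, the LIM-only protein Lmo4, and the Onecut factors Onecut1 and Onecut2. They were chosen by name, 8 of 18193 genes with a named probe set on the array, and were measured by 16 of its 45101 probe sets. Where a gene had several probe sets, that with the highest mean log2 signal was used, after signals under 200 were raised to 200. Signals of at least 1000 counted as detection. Barhl2 was detected in 10 of 26 cells, Lmo4 in 8, Onecut2 in 4, Lhx2 and Lhx9 in 3 each and Isl1 in 1, while Lhx1 and Onecut1 were detected in none. Over all genes, 55.9% were detected in at least 1 cell, against 6 of these 8, and 47.1% in at least 2 cells, against 5 of the 8.

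The study profiled single mouse retinal amacrine cells, the inhibitory interneurons of the inner retina, to find markers of their classes, with each cell on its own Affymetrix Mouse 430 2.0 array. Cells were picked by the green fluorescence of a reporter plasmid electroporated into the developing retina, driven by the Ndrg4 promoter (pNdrg4) or the Synapsin promoter (pSynapsin). The reporter fixed which cells could be picked, and the series text describes the sets it labelled as morphologically distinct. The 26 cells fell into 7 groups. The largest held 10 pNdrg4 cells of postnatal day 5 (P5) with no mention of culture. The same age gave 5 pNdrg4 and 4 pSynapsin cells from retinas kept in culture for 5 days. P8 contributed 2 cells of either reporter after 8 days in culture. There were also 2 pNdrg4 cells labelled P4 and 1 pSynapsin cell labelled E19, all cultured for 4 days. The series text places electroporation at P0, which the label E19 does not match, so that cell was left out of the differences between group means and kept in the counts over cells. Because the labels do not tie cells to animals, retinas or cultures, a group is treated as 1 sample and no p-value was computed. SDs describe cell-to-cell spread, and the exact Clopper-Pearson 95% intervals cover counting error only. Cells are named by group and by their label in the series, because labels such as A1 and B4 recur between groups.

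Homeodomain factors bind short AT-rich DNA elements, often around the core letters ATTA. LIM domains bind proteins and not DNA: LIM-homeodomain factors work in complexes built on the adaptors Ldb1 and Ldb2, and LIM-only proteins, which lack a homeodomain, compete for the same adaptors. In the developing mouse retina Barhl2 acts in the specification of amacrine subtypes and in ganglion cell maturation. Isl1 is known from ganglion, bipolar and cholinergic starburst amacrine cells, Lhx1, Onecut1 and Onecut2 from horizontal cells, Lhx2 from progenitors and Müller glia, and Lmo4 from GABAergic amacrine and bipolar cells.

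The 250 bases before the annotated start of 3 of the genes are printed to show how differently these genes begin. They are Barhl2 and Lmo4, the most often detected, and Lhx9, the gene with the highest signals. Sequences are from RefSeq on GRCm38.p6, are read 5′ to 3′ along the gene and end at the base before the start, with each ATTA (TAAT on the other strand) in capitals. For Lmo4, which has 3 annotated starts in the table, the most upstream is shown.
Barhl2, chr5:106458167-106458416, minus strand: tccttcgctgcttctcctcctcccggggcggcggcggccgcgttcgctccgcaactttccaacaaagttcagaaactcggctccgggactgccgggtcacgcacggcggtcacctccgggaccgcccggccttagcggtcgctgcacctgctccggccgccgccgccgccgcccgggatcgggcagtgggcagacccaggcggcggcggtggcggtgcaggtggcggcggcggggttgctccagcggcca
Lhx9, chr1:138842445-138842694, minus strand: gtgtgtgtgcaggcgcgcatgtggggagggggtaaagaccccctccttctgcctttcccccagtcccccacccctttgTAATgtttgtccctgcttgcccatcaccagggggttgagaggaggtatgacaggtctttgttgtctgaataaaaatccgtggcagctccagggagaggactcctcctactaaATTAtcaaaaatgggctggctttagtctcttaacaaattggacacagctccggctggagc
Lmo4, chr3:144205256-144205505, minus strand: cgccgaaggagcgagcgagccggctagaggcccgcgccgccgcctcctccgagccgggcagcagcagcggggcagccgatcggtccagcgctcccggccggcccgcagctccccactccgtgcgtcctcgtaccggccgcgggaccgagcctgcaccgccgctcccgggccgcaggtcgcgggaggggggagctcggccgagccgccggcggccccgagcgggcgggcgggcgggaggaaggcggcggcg
The Lhx9 window held 2 ATTA matches and the windows of Barhl2 and Lmo4 held 0, while 54.9% of 32851 RefSeq windows of that length held at least 1. Of the windows not printed, that of Isl1 held 2 and that of Lhx1 held 1. Those of Lhx2, Onecut1 and the other Lmo4 starts held 0. G and C made up 74.8% of the Barhl2 window, 82.4% of the Lmo4 window and 53.6% of the Lhx9 window, against a median of 52.4% over all windows. Windows were searched for 7 of the 8 genes, 10 windows in all, and Onecut2 was not among those searched. Longer motifs were searched on both strands. None of the 10 windows held TAATTA, which contains ATTA and was found in 4.84% of all windows. None held the Onecut core ATCAAT, found in 6.72% of all windows. The E-box CAGATG, in 14.4% of all windows, was in none of the 10 either. Such matches describe letters and are not binding sites.

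The label of the cells was checked against amacrine markers. Pax6 was detected in 26 of 26 cells, Tfap2b in 20, Tfap2a in 16 and the vesicular inhibitory transporter gene Slc32a1 in 22. Between 1909 and 4180 genes were detected per cell. Transcripts of other cell types were present in many cells, and the no-culture-stated P5 cell B4 stood apart by its progenitor genes. It held 5 of the 7 measured, among them Mki67 at a signal of 19686 and Cdk1 at 3199. It also held 5 of 9 Müller genes, Rlbp1 among them at 11844, and 5 of 10 rod genes. Of the 9 measured ganglion cell genes it held 1, Pou4f1 at 2790. Rod and Müller genes were as many or more in some other cells, such as 7 rod genes in P8 pSynapsin cell B4 and 6 Müller genes in no-culture-stated cell A6. Several counts that include the no-culture-stated cell B4, but not all of them, are therefore also given without it.

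Barhl2 was the most widely detected of the 8, in 10 of 26 cells (38.5%, 95% interval 20.2 to 59.4%), with a median signal of 4709 in those cells. The no-culture-stated P5 cells gave 13076 in A5, 6491 in A1, 1498 in B1 and 1053 in B2, and the P4 cells gave 10755 in A3 and 7134 in B4. Cultured P5 pNdrg4 cells gave 4415 in D3 and 1042 in D5. At P8 it was 5004 in pNdrg4 cell A1 and 2234 in pSynapsin cell B3. The signals formed a graded series and not a gap: 7 further cells lay between 200 and 1000, led by cultured pNdrg4 cell C6 at 964 and pSynapsin cell E1 at 859. The lowest detected and the highest undetected signal thus differed little, at 1042 and 964.

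By group, the mean log2 Barhl2 signal was 13.1 ± 0.42 (SD, n = 2 cells) at P4, where both cells were detected. It was 9.98 ± 3.27 (n = 2) in P8 pNdrg4 cells, 9.58 ± 1.76 (n = 5) in cultured P5 pNdrg4 cells, 9.40 ± 2.25 (n = 10) in P5 cells with no culture stated and 9.38 ± 2.46 (n = 2) in P8 pSynapsin cells. Neighbours among these middle groups differed by far less than their spread. The P5 pSynapsin group was lowest of those with several cells, at 8.17 ± 1.05 (n = 4), and the E19 cell had a signal of 10.5. Both P4 cells were high, but no-culture-stated cell A5 exceeded them, so P4 overlapped that group.

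**Figure D1:**
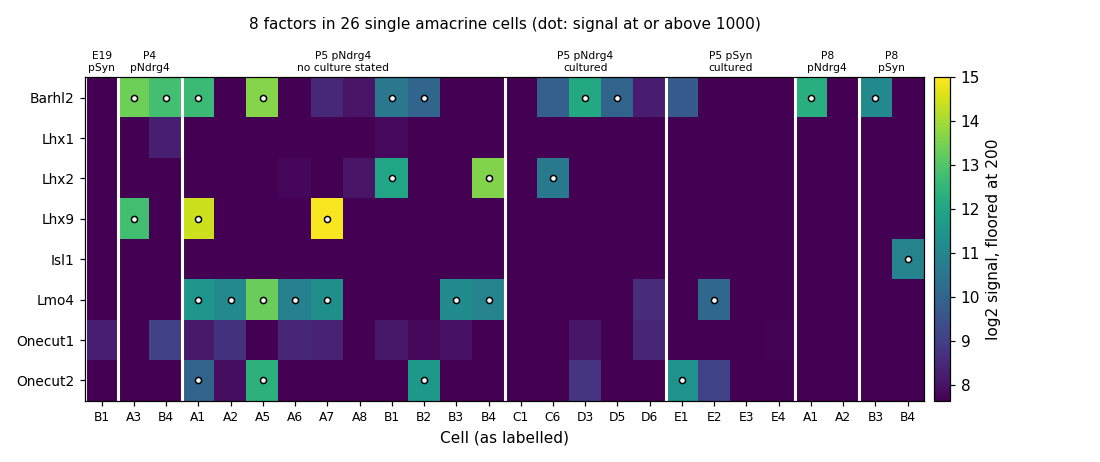
Log2 signal (floored at 200, colour scale) of the 8 factors in rows and the 26 cells in columns, grouped by age, reporter and culture. Dots mark signals of 1000 or more. Barhl2 is spread over 5 of the 7 groups, Lmo4 lies almost wholly in the no-culture-stated P5 group, and Lhx1 and Onecut1 have no dot.

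By its chosen probe set Lhx9 showed the opposite form, a switch between very high and near nothing. Its signal was 31131 in no-culture-stated P5 cell A7, 22300 in cell A1 of the same group and 6958 in P4 cell A3. In the other 23 cells it was at most 131, so by this probe set no cell lay between 200 and 1000. Of the detected factors with several probe sets, Lhx9 was the most concordant. A second probe set gave 11296, 15123 and 14542 in A7, A1 and A3 and stayed below the threshold elsewhere. Another probe set gave 11843, 5736 and 6120 in the same 3 cells and also 1775 in the no-culture-stated cell B4. The fourth reached the threshold in A7 and A1 only, with 287 in A3. It lay higher than that in some cells without Lhx9 by the chosen probe set, at 576 in P4 cell B4 and 476 in no-culture-stated cell A2. Lhx9 was thus detected in 11.5% of cells (95% interval 2.4 to 30.2%).

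All 3 cells with Lhx9 carried Gad1 and Gad2, which encode the enzymes of GABA synthesis, and 0 carried the glycine transporter gene Slc6a9. Across the cells Gad1 was detected in 11 and Slc6a9 in 14, with 1 cell holding both. The phi coefficient of detection, which runs from -1 to 1, was 0.42 for Lhx9 with Gad1 and -0.39 with Slc6a9. With 3 cells these are descriptions of those cells. The same 3 cells also held Tfap2b and Meis2, and 0 held Neurod1, which was found in 11 other cells.

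Lhx2 was detected in a different trio of cells, with 0 shared with Lhx9. Its signal was 12515 in no-culture-stated P5 cell B4, 4136 in cell B1 of that group and 1562 in cultured P5 pNdrg4 cell C6, and at most 264 elsewhere. The 2 cells with the highest Lhx2 were among those with the most progenitor and Müller transcripts. Cell B4 held 5 of 7 progenitor and 5 of 9 Müller genes, and cell B1 held 2 and 5 of them. Both carried Sox2, at 13185 in B4 and 34320 in B1, which was detected in 2 other cells without Lhx2 and is a factor of progenitors, Müller glia and starburst cells. Cell C6 held 0 progenitor and 3 Müller genes and no Sox2 signal above the threshold, so Lhx2 was not confined to cells with progenitor genes. Without B4, Lhx2 was detected in 2 of 25 cells. The part of those transcripts in the Lhx2 signal was not tested.

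Isl1 passed the threshold in 1 of 26 cells (3.8%, 95% interval 0.1 to 19.6%), P8 pSynapsin cell B4, at 1958. The second Isl1 probe set gave 4.9 in that cell and at most 106 anywhere, so the detection rested on a single probe set. That cell also held 7 of the 10 measured rod genes. Chat, Slc18a3 and Slc5a7, the cholinergic genes of starburst amacrine cells and known targets of Isl1 in other neurons, were detected in 0 of 26 cells, as was Mnx1. Of the 7 starburst markers 3 were detected, Slit2 in 8 cells, Sox2 in 4 and Megf10 in 2, and none of them was in the cell with Isl1. Lhx1 reached at most 316, in P4 cell B4, and 98 by its second probe set. A count of 0 of 26 allows a share of up to 13.2% (upper bound of the 95% interval).

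Lmo4 was detected in 8 of 26 cells (30.8%, 95% interval 14.3 to 51.8%), with a median of 2275 among them. The no-culture-stated P5 cells gave 10230 in A5, 2901 in A1, 2513 in A7, 2323 in B3, 2228 in A2, 1966 in B4 and 1844 in A6. The only other cell was P5 pSynapsin cell E2 at 1098. Apart from A5 these signals lay in a narrow band, and below them was a gap: cultured pNdrg4 cell D6 had 386, and the remaining 17 cells had 29 or less. Lmo4 has 1 probe set on the array, so no second measurement could be set beside it. Without B4 it was detected in 7 of 25 cells.

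Lmo4 divided its own group. The other 3 no-culture-stated cells, B1, B2 and A8, had signals of 4.1, 4.5 and 2.0, as low as in the cultured cells. The 7 cells with Lmo4 had between 2046 and 3513 genes detected and the 3 without had 1909 to 2249, so the cells without it were among those with the fewest genes. The 5 cultured pNdrg4 cells had 3049 to 3925 genes and 0 had Lmo4. The part of detection depth in the split within the group, or between the groups, was not tested.

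**Figure D2:**
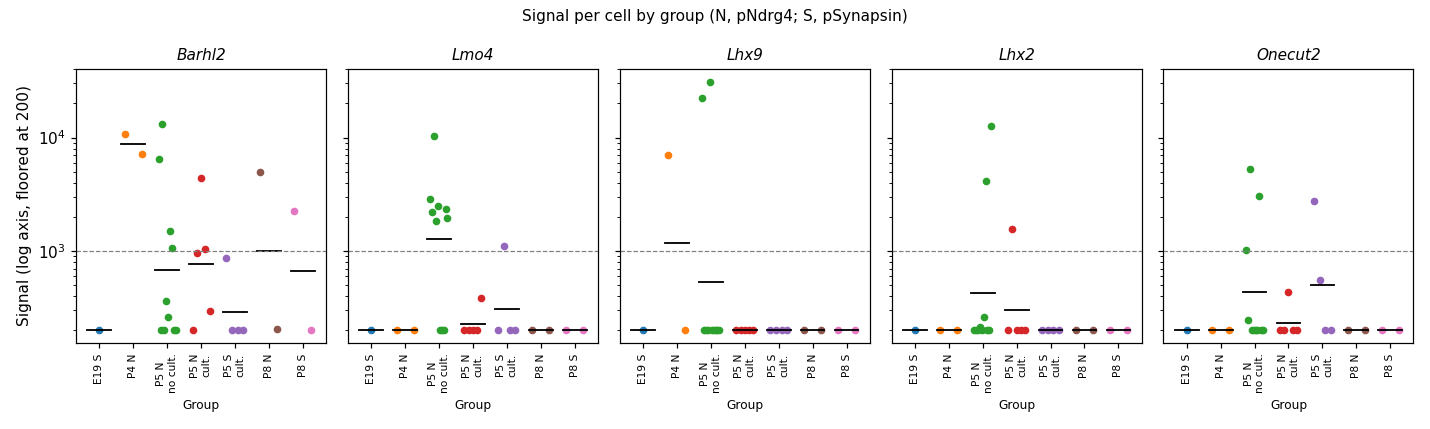
Signal per cell (log axis, floored at 200) of Barhl2, Lmo4, Lhx9, Lhx2 and Onecut2 in the 7 groups, where N is pNdrg4, S is pSynapsin, "no cult." stands for no culture stated, points are cells, black bars are means of log2 signals and the dashed line is 1000. For Lmo4, 7 of 10 cells with no culture stated lie above the line and 0 of 5 cultured P5 pNdrg4 cells do.

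Onecut2, a Cut-domain homeodomain factor, was detected in 4 of 26 cells (15.4%, 95% interval 4.4 to 34.9%). The signal was 5257 in no-culture-stated P5 cell A5, 3050 in B2, 1016 in A1 and 2748 in P5 pSynapsin cell E1. The highest cell below the threshold was pSynapsin E2 at 558. The 3 probe sets of Onecut2 named different cells. A second reached 6926 in no-culture-stated cell A8 and 2169 in pSynapsin cell E4, and the third reached 3456 in pSynapsin cell E3. In all, 7 cells passed the threshold by some probe set and 0 cells by more than 1, so which cells hold Onecut2 was not settled by these arrays. The nearest to concordance was cell A1, with 1016 by the chosen probe set and 793 by the second.

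Onecut1 was detected in 0 of 26 cells, with a highest signal of 534 in P4 cell B4. Its chosen probe set lay between 200 and 1000 in 12 cells, while its second probe set was at most 145. It was detected in 3 cells after quantile normalization and in 1 at a threshold of 500. Horizontal cells, in which Lhx1, Onecut1 and Onecut2 are known to be active, are also marked by Calb1, which was detected in 0 cells, Prox1, which was detected in 2, and Slc4a3, which was detected in 4. Cell A1 of the no-culture-stated group held Slc4a3 and Onecut2, and P8 pNdrg4 cell A1 held Slc4a3 and Prox1. The related gene Onecut3 was likewise detected in 0 cells.

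**Figure D3:**
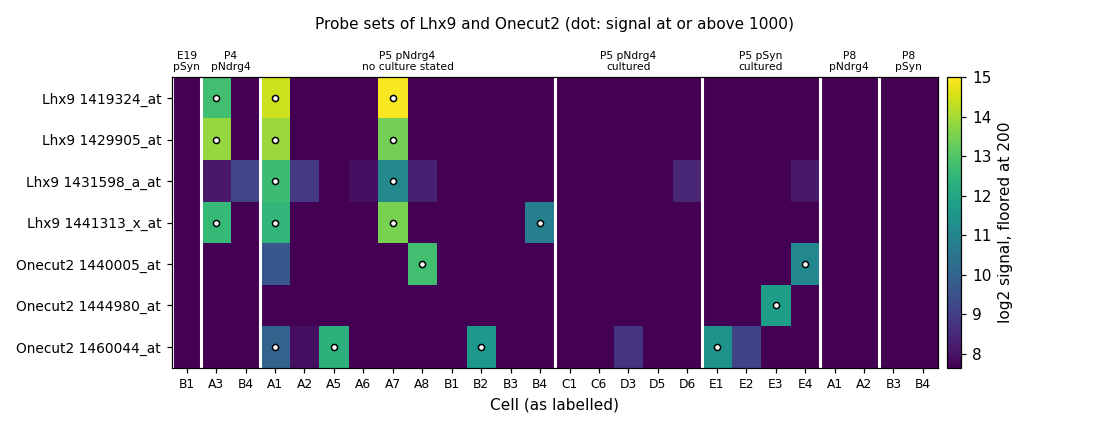
Log2 signal (floored at 200, colour scale) of the 4 probe sets of Lhx9 and the 3 of Onecut2 in the 26 cells, with dots at signals of 1000 or more. The Lhx9 probe sets mark the same few cells, with the exceptions of P4 cell A3 and no-culture-stated cell B4, and the Onecut2 probe sets share no marked cell.

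The factors met in few cells. Of the 26 cells, 7 had none of the 8 detected, 12 had 1 and 7 had more than 1. Those 7 were 6 of the 10 no-culture-stated P5 cells and P4 cell A3. Cell A1 of the no-culture-stated group held 4 (Barhl2, Lhx9, Lmo4 and Onecut2) and A5 held 3 (Barhl2, Lmo4 and Onecut2). The other combinations were Lhx9 with Lmo4 in A7, Barhl2 with Lhx2 in B1, Barhl2 with Onecut2 in B2, Lhx2 with Lmo4 in B4, and Barhl2 with Lhx9 in P4 cell A3. Barhl2 accompanied 3 of the 4 cells with Onecut2 by the chosen Onecut2 probe set (phi 0.32). It accompanied 2 of the 8 cells with Lmo4 (phi -0.18). No-culture-stated cell A8 and P5 pSynapsin cells E3 and E4 passed by other Onecut2 probe sets, and their Barhl2 signals were 263, 127 and 120. The pairing with Onecut2 thus depended on the probe set. The count of 7 moved to 11 with detection at 500 and to 4 at 2000, and it was 6 without cell B4.

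Barhl2 was present in both transmitter classes as split by Gad1 and Slc6a9. It was found in 5 of the 10 cells with Gad1 and no Slc6a9 and in 5 of the 13 cells with Slc6a9 and no Gad1. Most of its cells carried the amacrine genes Tfap2b (9 of 10), Slc32a1 (9 of 10) and Tfap2a (8 of 10). Gad2, which was not part of the split, was in 7 cells with Barhl2 and 7 without it (phi 0.26). Among the former were cultured P5 pNdrg4 cells D3 and D5, P8 pNdrg4 cell A1 and P8 pSynapsin cell B3. Those cells held Slc6a9 and no Gad1, so that class was not free of GABA synthesis genes. Lmo4 was in 4 of the 10 and 2 of the 13, in the 1 cell with both genes and in 1 of the 2 with neither. Without cell B4 it was in 1 of 12 cells with Slc6a9 and no Gad1. Onecut2, by its chosen probe set alone, was in 3 of the 10 and 1 of the 13. Within the no-culture-stated group, Lmo4 was in 5 of 7 cells with Gad1 and 2 of 3 without.

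To ask how cultured cells differed, the P5 pNdrg4 cells with and without a stated culture were compared, 5 against 10, since they share age and reporter. Lmo4 was lower in the cultured cells, and the Barhl2 difference depended on how it was summarised. The mean log2 Lmo4 signal was 7.83 ± 0.42 (SD, n = 5 cells) in cultured cells and 10.31 ± 1.97 (n = 10) in the others, a difference of -2.48. Detection was 0 of 5 (95% interval 0 to 52.2%) against 7 of 10 (34.8 to 93.3%), and these intervals overlap. The groups overlap as well, because B1, B2 and A8 lie with the cultured cells, and 0.338% of all genes showed no overlap. Of the 5 factors detected in at least 2 cells, only Lmo4 passed a 4-fold difference, and with a floor of 500 in place of 200 it did not (-1.74). Among all 8570 genes detected in at least 2 cells, 8.84% passed it, 7.36% upward and 1.48% downward. Genes detected in at least 7 of the 10 and in 0 of the 5 made up 0.0817% (7 of 8570). That limit was set at the Lmo4 counts after they were seen, so Lmo4 is 1 of the 7 by its setting.

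For the other factors the differences, cultured minus no culture stated, were -1.41 for Lhx9, -0.90 for Onecut2, -0.49 for Lhx2 and 0.17 for Barhl2, each smaller than the SD of the no-culture-stated cells. The Barhl2 value was 1.64 by group medians and -0.70 after quantile normalization. Their median with Lmo4 was -0.90, against 0.31 over all genes. Onecut1, Lhx1 and Isl1 did not pass the filter, at -0.16, -0.02 and 0.0. Taking all ages and reporters, Lmo4 was in 1 of 16 cells with a stated culture (6.2%, 95% interval 0.2 to 30.2%) and Barhl2 in 6 of 16 (37.5%, 15.2 to 64.6%).

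Several other measures moved with this comparison. Gad1 was in 7 of the 10 no-culture-stated cells and 1 of the 5 cultured cells. Other transmitter genes did not go the same way. Gad2 was in 6 of the 10 and 4 of the 5, Slc32a1 in 7 and 5, and Slc6a9 in 3 and 3. The median number of genes detected was 2361.5 in the no-culture-stated cells and 3256 in the cultured cells. Summed signals of the 9 Müller genes ranged from 5331 to 62913 against 604 to 20369, those of the 7 progenitor genes from 451 to 45697 against 296 to 1657, and those of the 10 rod genes from 365 to 61383 against 999 to 5959. Of the 7 progenitor genes 1 was detected in the cultured pNdrg4 cells, Fgf15 in D3 at 1167. Mki67, Cdk1 and Hes5 were detected in cell B4 alone, and Sox2 in 3 of the 10 no-culture-stated cells and 0 of the 5 cultured ones. The part of these transcripts and of the transmitter genes in the Lmo4 difference was not tested. Leaving out cell B4 or any other cell in turn kept the Lmo4 difference between -2.78 and -2.15.

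Reporters were compared at P5 between 4 pSynapsin and 5 cultured pNdrg4 cells, the latter also used for the culture difference. Barhl2 was 8.17 ± 1.05 (n = 4) against 9.58 ± 1.76 (n = 5), a difference of -1.41, with detection in 0 of 4 and 2 of 5 cells. Onecut2 was 1.09 higher and Lhx2 0.59 lower on the log2 scale in pSynapsin cells, and Lmo4 was 0.42 higher. Each difference is smaller than the larger SD of its groups. None of the 5 factors passed 4-fold, against 10.3% of all genes. By group medians Barhl2 differed by -2.27, and with the highest probe set in each cell Onecut2 differed by 2.98, so the calls rested on those choices. Summed rod gene signals were 7580 to 62989 in these pSynapsin cells and 999 to 5959 in the pNdrg4 cells, and their part in these values was not tested. At P8, with 2 cells in each group, Barhl2 differed by -0.59 and Isl1, through its single cell, by 1.65. There, 21.0% of all genes passed 4-fold and 0 of the 5 factors did.

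The age comparison took P8 minus P5 in cultured cells within each reporter and averaged both. Barhl2 was 0.81 higher at P8 (0.40 in pNdrg4 and 1.21 in pSynapsin cells), detected in 2 of 4 cells at P8 and 2 of 9 at P5. Onecut2 fell by 0.77, Lmo4 by 0.40 and Lhx2 by 0.30 on the log2 scale, and Lhx9 was at the floor throughout. None passed 4-fold, against 5.48% of all genes, and the Barhl2 difference ranged from -0.35 to 1.96 as cells were left out in turn. Days in culture rose with age, so age and culture time cannot be told apart.

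**Figure D4:**
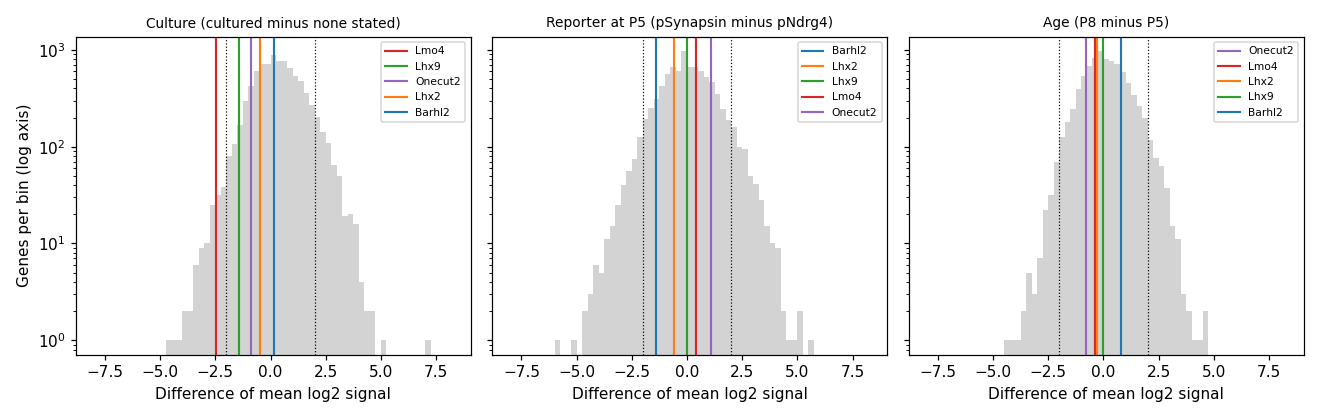
Distributions of differences in mean log2 signal over 8570 genes (gray bars, log axis) for culture, reporter at P5 and age, with coloured lines at the 5 factors detected in at least 2 cells and dotted lines at 4-fold. Lmo4 in the culture comparison, at -2.48, is the line past a dotted limit.

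Genes whose detection was most like that of each factor were ranked by phi among 7195 genes detected in 3 to 23 cells. For Barhl2 the highest were the neutral amino acid transporter gene Slc1a4 (phi 0.62, 5 of its 5 cells), Trmu (0.62), the synaptic scaffold gene Dlg3 (0.60, 8 of its 11 cells), C2cd5 (0.59) and Otud3 (0.59). The lowest were Mrpl12 (-0.68), Dbi, which encodes the diazepam binding inhibitor (-0.67), and Selenof (-0.62). For Lmo4 they were Nampt, an enzyme of NAD synthesis (0.73, 5 of its 5 cells), Zfpl1 (0.72), Hspb6 (0.64), Dedd (0.64) and Tsga10 (0.62), and at the other end Oxr1 (-0.72, 0 of its 14 cells), Larp4b (-0.67) and Birc6 (-0.67). Because 7 of the 8 cells with Lmo4 belonged to 1 group, genes that differ between groups enter that ranking. Without cell B4 the phi of these genes with Lmo4 was 0.58 to 0.70 at the upper end and -0.70 to -0.65 at the lower end. For Onecut2 they were Ttl and Diras1 (0.70 each), Elavl1 (0.64), Ankrd50 and Zdhhc13 (0.60 each), with Gdi2, Vopp1 and Prpf39 lowest (-0.70 each). That ranking used the chosen Onecut2 probe set, and the other Onecut2 probe sets named other cells.

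Lhx9 and Lhx2 fell outside the naming rule, with 3 cells each, and their partners were named after the values were seen. Nit2 was detected in exactly the 3 cells with Lhx9, at 1901, 1240 and 1271, and was the only gene among the 7195 with that pattern. Reln, which encodes the secreted protein reelin, was in all 3 and in 2 further cells (phi 0.74), at 35111 in A7, 27758 in A1 and 8186 in P4 cell A3. For Lhx2 the highest were Armcx3 (0.85), the cell cycle gene Cks1b (0.74) and Phrf1 (0.74), or 0.80, 0.68 and 0.68 without cell B4.

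Relatives of the 8 factors and their cofactors were counted against the 55.9% of all genes detected in at least 1 cell. Of 9 other LIM-homeodomain and BarH genes only Lhx4 was detected, in no-culture-stated P5 cell B4 (1380) and pSynapsin cell E2 (1024), and of 3 other LIM-only genes none was, with Lmo2 highest at 918. Without cell B4, Lhx4 was in 1 cell. Of 6 cofactor genes 4 were detected, a share near that of all genes: the single-stranded DNA binding partners Ssbp3 in 20 cells and Ssbp2 in 17, the ubiquitin ligase gene Rlim in 14 and the adaptor Ldb2 in 7. Ldb1, the more general adaptor, was at most 252 and Ssbp4 at most 715. Among 12 cells with Lhx2, Lhx9, Isl1 or Lmo4, Ldb2 was in 3, and among the other 14 cells it was in 4. Without cell B4 it was in 3 of 11 and 4 of 14. Of 4 measured Cut-domain relatives, Cux1 and Satb1 were each in 13 cells and Cux2 in 4. Cux2 was 2.97 higher on the log2 scale in cultured than in no-culture-stated P5 pNdrg4 cells, 1 of 3 Cut-domain relatives past 4-fold, against 8.84% of all genes.

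Rlim, whose product is known to target LIM-only proteins and their adaptors for degradation, was detected in all 8 cells with Lmo4 and in 6 of the other 18 (phi 0.62). Without cell B4 these were 7 of 7 cells and a phi of 0.60. The other detected cofactors had a negative phi with Lmo4: Ssbp3 -0.23, Ssbp2 -0.22 and Ldb2 -0.22. Within the no-culture-stated group Rlim was in 7 of 7 cells with Lmo4 and 0 of 3 without. Those 3 cells had 1909 to 2249 genes detected, and the part of detection depth was not tested. Rlim was 1594 in A5, where Lmo4 was highest, while A1 and B3, with Lmo4 at 2901 and 2323, had Rlim at 20790 and 22488. Rlim also resembled Lmo4 in the culture comparison, at 8.77 ± 1.58 (n = 5) in cultured and 11.49 ± 2.68 (n = 10) in no-culture-stated cells, a difference of -2.72. It was in 2 of the 5 cultured pNdrg4 cells, which lacked Lmo4. Among 4 cofactor genes detected in at least 2 cells, Rlim was the 1 lower by 4-fold or more, against 1.48% of all genes. Most cells with Lmo4 were in the no-culture-stated group, so the phi and the culture difference are not separate measurements.

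**Figure D5:**
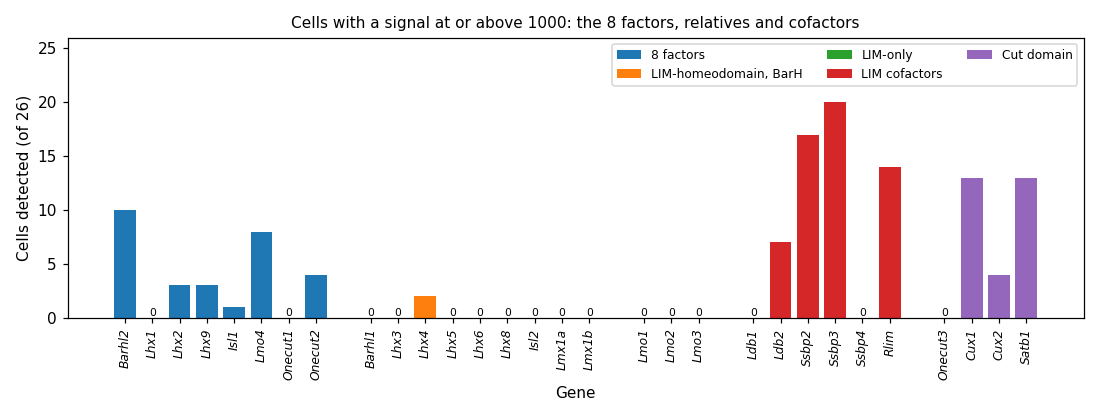
Number of cells, of 26, with a signal of 1000 or more for the 8 factors, their LIM-homeodomain, BarH, LIM-only and Cut-domain relatives, and LIM cofactors (bars start at 0, and 0 is printed where no cell passed). Ssbp3 reaches 20 cells, and among the relatives outside the Cut domain Lhx4 alone has a bar, at 2 cells.

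Of 12 measured inner retina fate factors 8 were detected, a share near the 55.9% of all genes: Six3 in 15 cells, Rorb in 14, Meis1 and Meis2 in 12 each, Neurod1 and Six6 in 11 each, Neurod4 in 7 and Nr4a2 in 5. In the culture comparison 1 of the 8, Six3 at 3.22, was higher by 4-fold or more, against 7.36% of all genes. Lower by as much were 3, Meis1 at -2.55, Meis2 at -2.39 and Neurod1 at -2.02, against 1.48% of all genes. Ptf1a, Foxn4, Atoh7 and Sall3, which act early in the amacrine, horizontal and ganglion cell lineages, were in 0. Robo3, a guidance receptor gene that Lhx2 and Lhx9 are known to regulate in commissural neurons of the spinal cord, was in 5 cells, all cultured at P5, at 33992 in C1, 19196 in D5, 18196 in D3, 6603 in E4 and 1399 in E1. None of them was a cell with Lhx2 or Lhx9, each detected in 3 cells (phi -0.18 for each). Barhl2 was in 2 of the 5, D3 and D5, a share near its 10 of all 26 cells (phi 0.02).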

How the data were processed

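GFP cells were picked by hand after papain treatment, per the labels' protocols, and cDNA primed with oligo dT was amplified over 35 PCR cycles. The deposited intensity values are linear and were made with MAS5 per the submitters' processing notes (version not given in the sources used here), with no detection calls. The mean of each array trimmed by 2% was 500, so no rescaling was applied. Such amplification can lose rare transcripts, so a gene below 1000 is not shown to be absent. Computing used Python 3.11.15, numpy 2.4.6, pandas 2.3.3 and scipy 1.17.1, with code checked on simulated data. Differences are between group means of log2 signals floored at 200, with 4-fold as the limit, over genes detected in at least 2 cells. The floor shortens differences. The members, gene lists and comparisons were chosen with earlier results of these data known. Relatives, cofactors, fate factors and targets were named where detected, cell type markers were counted by list with those named picked after their values were seen, and the 5 highest and 3 lowest partners by phi were named for factors in 4 to 20 cells. Some listed genes were not analysed here. Alternatives changed the detection threshold, floor, probe set, scaling, averaging and cells used. Per-group counts with Rlim and Gad1, and results without cell B4, were added after seeing the data.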

Additional observations from a re-analysis of the deposited data

Results flagged for a closer look

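Among 16 combinations of a factor with a group of 4 to 10 cells, 7 had a highest cell far from the others by Dixon's ratio at the 95% critical value. Chance flags about 1 in 20 such groups, and signals held at the floor make such gaps easy to reach. In cultured P5 pNdrg4 cells these were Lhx2 in C6 (10.61 on the log2 scale), Lmo4 in D6 (8.59) and Onecut2 in D3 (8.77). In P5 pSynapsin cells they were Barhl2 in E1 (9.75), Lmo4 in E2 (10.1) and Onecut1 in E4 (7.68, barely above the floor of 7.64). In P5 cells with no culture stated it was Lhx1 in B1 (7.84). Of the 7, Lhx2 in C6 and Lmo4 in E2 were signals above 1000.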

How the results depend on the processing

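No difference past 4-fold turned its direction under the alternatives. The sign of the Barhl2 difference was not fixed: leaving out cells in turn gave -0.46 to 0.66 for culture, -0.35 to 1.96 for age and -2.9 to 1.72 for reporter at P8. Of the main results, 144 comparisons with an alternative stayed within their limits and 10 moved. The 144 are no measure of stability, because some could not move. Barhl2, Lhx2 and Lmo4 have 1 probe set each, so changing the probe set choice repeats their main value. The limits of a detection count were its Clopper-Pearson interval, which is wide, at 20.2 to 59.4% of cells for Barhl2. The rise of Onecut1 detection after quantile normalization was thus not counted as a move. Detection of Isl1 went from 1 cell to 0 at a threshold of 2000 and to 0 with the median over its probe sets, and Onecut2 went from 4 cells to 0 with that median. Cells with more than 1 factor went from 7 to 11 at a threshold of 500 and to 4 at 2000. The culture count of factors past 4-fold went from 1 to 0 with a floor of 500 (Lmo4 -1.74), and Lmo4 was -3.48 with a floor of 50. The reporter count at P5 went from 0 to 1 with the highest probe set in each cell (Onecut2) and to 1 with group medians (Barhl2). At P8 it ranged from 0 to 1 as cells were left out in turn: Barhl2 passed without pSynapsin cell B3 or without pNdrg4 cell A2. The shifts with threshold, floor and left-out cells follow from those settings. For those with the probe set choice and with group medians the cause was not tested. No paired analysis was possible because each sample is 1 cell, the result comes from no test, and the cell numbers were given in accession order.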

Other observations

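Lhx1os, a transcript annotated beside Lhx1, was detected in 1 cell, no-culture-stated P5 cell B3, at 3150, where the Lhx1 signal was 45.7. It was noticed after the values were seen.

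Cell A7, with the highest Lhx9 signal, was also the only cell with the neuropeptide precursor gene Tac1, at 63687. The other cells with Lhx9 had no Tac1 signal above 1000.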
